A study of Sus scrofa with 10 samples.

Results

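The genes described here took the most RNA-seq reads in the longissimus lumborum, the long muscle of the loin, of Portuguese pigs, once a set of known cases was taken away. Genes were ranked by their mean normalised count over the 10 pigs and ranks 1 to 100 were kept. From these, 3 genes of the mitochondrial genome were dropped, and 8 nuclear genes were dropped by name (RABEP2, SEPTIN1, ENSSSCG00000036235, CTSF, SPSB2, TNNT3, ATP2A1 and THRA). The 89 genes left, called members below, are 89 of the 25880 genes listed and 89 of the 1513 genes tested, since every member passed the minimum of a mean of 50 in each breed. A gene symbol was found for 68 members, and 21 had an Ensembl identifier alone. The members were thus chosen by their mean normalised count over all pigs, so a high level of a member is its reason for being here and not a result.

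The pigs were 5 Alentejano (AL) and 5 Bísaro (BI) animals, castrated males with a labelled carcass weight of 150 kg, and 1 library was made from the muscle of each. The study compared these breeds, of which AL is known as a fat breed of the south and BI as a leaner breed of the north. Breed is the only factor that sets the groups apart in the labels, and no batch is named in the sources used here. The reads falling on genes numbered 2298045 to 3027364 per AL pig and 2461652 to 3343194 per BI pig. The study's paper reports many times more sequenced reads per sample. Reads not counted on a gene are not in the values used here. Shares of counts below are thus shares of the reads counted on genes, and not of all RNA sequenced. Whole muscle was sequenced, so fewer cells of a type and less RNA per cell cannot be told apart.

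Skeletal muscle devotes much of its messenger RNA to the proteins of the sarcomere, the contractile unit built of actin and myosin filaments, and to the enzymes of glycolysis, creatine phosphate and mitochondrial respiration that supply it with ATP. Genes lie on both strands of a chromosome, and the 3′ ends of neighbouring genes of opposite strands can face each other or overlap. A read from such a place belongs to the gene whose strand it matches, which can be told only if the strand of the read is used in counting.

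The muscle label was checked against 12 defining genes, of which 5 could be matched by symbol. The summed normalised count of ACTA1, CKM, DES, TNNC2 and TNNI2 ran from 10643 to 26270 in AL and from 20657 to 36259 in BI, and AL44 was lowest and BI34 highest. Summed counts of 9 fat cell markers ran from 76.5 to 156 in AL and from 68.7 to 180 in BI. For blood, 4 of 5 listed markers could be matched, and for the lining of vessels 5 of 6, and neither sum passed 23.2 in any pig. The sums for 6 fibroblast markers ran from 14.2 to 112 and those for 4 satellite cell markers from 12.3 to 26.4. Among 6 immune markers the sum ran from 111 to 171, with CD3E and LYZ listed at 0 in all pigs. It was mostly CD74, with a mean of 102, followed by CD68 with 26.8.

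Of the 89 members, 8 were on the lists of muscle genes used here. These were ACTA1, the actin of skeletal muscle, TNNI2, the inhibitory troponin of fast fibres, CKM, the muscle creatine kinase, ALDOA and GAPDH of glycolysis, GYS1, the muscle glycogen synthase, HHATL, a membrane protein of the sarcoplasmic reticulum, and EEF1A2, the elongation factor of adult muscle. A further 2 members were on the list of mitochondrial energy genes, NDUFB10 and NDUFS1, both subunits of respiratory complex I. Some of the other members have roles better known in other tissues. They include ADORA1, an adenosine receptor of brain and heart, PTK6, a tyrosine kinase of epithelia, HCLS1 and ITGAM, known from blood cells, and SYN1, a synaptic vesicle protein of neurons. HCLS1 had a mean of 3471 normalised counts per kb of exon and ITGAM of 912, while the blood cell marker PTPRC had 0.0609 and CD74, the highest of the immune markers, had 54.8 on the same per kb scale. MYH7B, a myosin heavy chain of striated muscle, was a member that the muscle lists did not hold. ITGAM, SYN1, MYH7B and FBXO40 were picked for these sentences after their values were seen.

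The letters in front of the genes are shown for a pair of members and the muscle genes that face them, since the result on neighbours below turns on such pairs. Each line gives 280 bases, from 250 before the annotated start to the first 30 of the gene, 5′ to 3′ on the strand of the gene, read from the RefSeq genome Sscrofa11.1. Capitals mark CG pairs, and also the letters TATAAA where they lie within 50 bases before the start. SCNM1, a splicing factor, lies on the minus strand, and its window is chr4:98082345-98082624. TMOD4, the tropomodulin of skeletal muscle that caps actin filaments, lies on the plus strand, with its window at chr4:98074130-98074409. LIN37, a subunit of a complex that represses cell cycle genes, lies on the plus strand, with its window at chr6:45175204-45175483. HSPB6, a small heat shock protein of muscle, lies on the minus strand, with its window at chr6:45183982-45184261.
SCNM1: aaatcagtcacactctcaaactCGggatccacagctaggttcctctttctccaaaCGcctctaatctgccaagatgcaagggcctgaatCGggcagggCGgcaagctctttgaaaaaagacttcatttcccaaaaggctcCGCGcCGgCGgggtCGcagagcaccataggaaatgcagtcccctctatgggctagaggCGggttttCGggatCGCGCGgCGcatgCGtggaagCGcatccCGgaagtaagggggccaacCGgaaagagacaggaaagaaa
TMOD4: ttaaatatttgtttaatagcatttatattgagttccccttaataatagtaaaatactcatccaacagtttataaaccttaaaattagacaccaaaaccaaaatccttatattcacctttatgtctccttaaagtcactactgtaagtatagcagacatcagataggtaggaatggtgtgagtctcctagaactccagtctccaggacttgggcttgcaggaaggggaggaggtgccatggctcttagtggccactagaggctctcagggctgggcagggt
LIN37: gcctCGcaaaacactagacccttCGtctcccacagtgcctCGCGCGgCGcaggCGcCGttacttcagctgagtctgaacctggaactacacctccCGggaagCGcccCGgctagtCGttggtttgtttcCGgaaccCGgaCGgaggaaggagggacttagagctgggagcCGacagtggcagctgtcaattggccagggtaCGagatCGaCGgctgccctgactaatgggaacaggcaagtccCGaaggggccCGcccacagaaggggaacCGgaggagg
HSPB6: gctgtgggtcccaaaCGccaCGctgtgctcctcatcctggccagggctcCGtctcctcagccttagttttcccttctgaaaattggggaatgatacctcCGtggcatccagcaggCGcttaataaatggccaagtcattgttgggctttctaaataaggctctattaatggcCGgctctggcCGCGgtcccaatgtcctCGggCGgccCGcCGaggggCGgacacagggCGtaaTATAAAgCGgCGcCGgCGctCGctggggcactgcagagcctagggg

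The window of SCNM1 held 19 CG pairs and that of TMOD4 held 0. The window of LIN37 held 22 CG pairs and that of HSPB6 held 19, and HSPB6 alone of these 4 had TATAAA within 50 bases before its start. Over the 65 members with a RefSeq position, the median ratio of CG pairs observed to those that the base composition gives was 0.757, against 0.767 over the 1168 genes tested that have a position, 0.707 over 13545 genes with a position and 0.398 over 132 genes on the muscle lists. TATAAA on the strand of the gene within 50 bases before the start was found in 0 of 65 members, in 0.685% of these genes tested, in 4.55% of the muscle lists and in 1.52% of all genes with a position. The MEF2 motif, named for a factor of muscle cells, searched on both strands and able to overlap TATAAA by a few letters, was found in 1 of 65 members (1.54%), in 0.685% of the genes tested, in 8.33% of the muscle lists and in 0.487% of all. For the 8 members on the muscle lists the median CG ratio was 0.502. These counts describe letters in the windows and say nothing of binding.

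The members held between 25.9% and 31.9% of all counts in a pig, with a median of 29.0%. Breed means were 29.7% ± 1.46 for AL and 28.0% ± 2.003 for BI (SD, n = 5 each), and the breeds overlapped. In AL the shares were 30.1% in AL44, 31.9% in AL46, 29.4% in AL49, 28.2% in AL52 and 28.6% in AL63. In BI they were 26.9% in BI25, 25.9% in BI34, 30.8% in BI36, 27.3% in BI37 and 29.4% in BI42. The exact (Clopper-Pearson) 95% interval of each share reached at most 0.059 percentage points to either side, which covers counting error only. The 8 genes dropped by name alone took 37.2% to 48.8%, and of the counts left without them and the mitochondrial genome the members held 57.3% ± 2.68 in AL, against 57.3% ± 1.88 in BI (SD, n = 5 each).

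Within the members the counts were uneven. The 3 highest, ENSSSCG00000038840, NDUFB10 and SCNM1, took 5.95% to 7.87% of all counts in a pig, and the 10 highest took 10.3% to 15.3%. Mean normalised counts fell from 75014 for ENSSSCG00000038840 to 2510 for DGAT1, a 29.9-fold range. The last members inside rank 100 were DDX49 with a mean of 2549, RMDN1 with 2519 and DGAT1, the enzyme of the last step of triglyceride synthesis, and just outside lay ENSSSCG00000031299 with 2459, SRRM2 with 2454 and ENO3, the enolase of muscle, with 2413. The 68 members with a symbol took 20.2% ± 0.879 of counts in AL, against 18.6% ± 0.566 in BI (SD, n = 5 each), and the 21 without took 9.52% ± 0.781 in AL and 9.49% ± 1.74 in BI.

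Per kb of RefSeq exon, which is the scale on which genes can be set side by side, the 65 members with a position ran from 256 normalised counts per kb for MYH7B to 85467 for NDUFB10, with a median of 1437. NDUFB10 was followed by SCNM1 at 35714, LIN37 at 21998, OTUB1, a deubiquitinating enzyme, at 9994, STK16, a protein kinase, at 9436 and ACTA1 at 6622 normalised counts per kb. So 5 members that are on none of the muscle lists had more counts per kb than skeletal actin. Each of the 5 had a gene of the opposite strand on its 3′ side within 5 kb, namely RPS2, TMOD4, HSPB6, MACROD1 and TUBA4A, and ACTA1 had none. The counts rest on Ensembl models and the lengths on RefSeq, and the strand of the counted reads was not tested.

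NDUFB10 had normalised counts of 56670, 95451, 77394, 70406 and 79038 in AL and of 59173, 70902, 67451, 62908 and 68274 in BI. The breeds overlapped, and AL46 was highest. SCNM1 had 29551, 34659, 29791, 31572 and 31707 normalised counts in AL and 31803, 34502, 37056, 31094 and 32187 in BI, the second smallest spread of any member. ENSSSCG00000038840, the highest member, had 55806, 74678, 82290, 74997 and 57086 normalised counts in AL and 81187, 83691, 94163, 58934 and 87307 in BI. All values for the breeds are given in the order AL44, AL46, AL49, AL52, AL63 and BI25, BI34, BI36, BI37, BI42.

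The 20 highest members held both steady and variable genes, and the most variable are given further on. HCLS1 ran from 11836 in AL46 to 23676 normalised counts in AL52, STK16 from 10285 to 16966, and ENSSSCG00000034799 from 11596 to 17707. ENSSSCG00000034195 had 16731, 20473, 24762, 23453 and 17738 in AL and 25919, 29032, 33653, 18633 and 27499 in BI, with an unadjusted p of 0.0503 and an adjusted p of 0.651 by limma. All but 1 of its BI values lay above all of its AL values. ENSSSCG00000032457, CCDC158, ACY1, a hydrolase of acetylated amino acids, OTUB1 and ENSSSCG00000037181 had means from 8836 to 11484 normalised counts, and in each the highest pig was under 2 times the lowest.

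**Figure D1:**
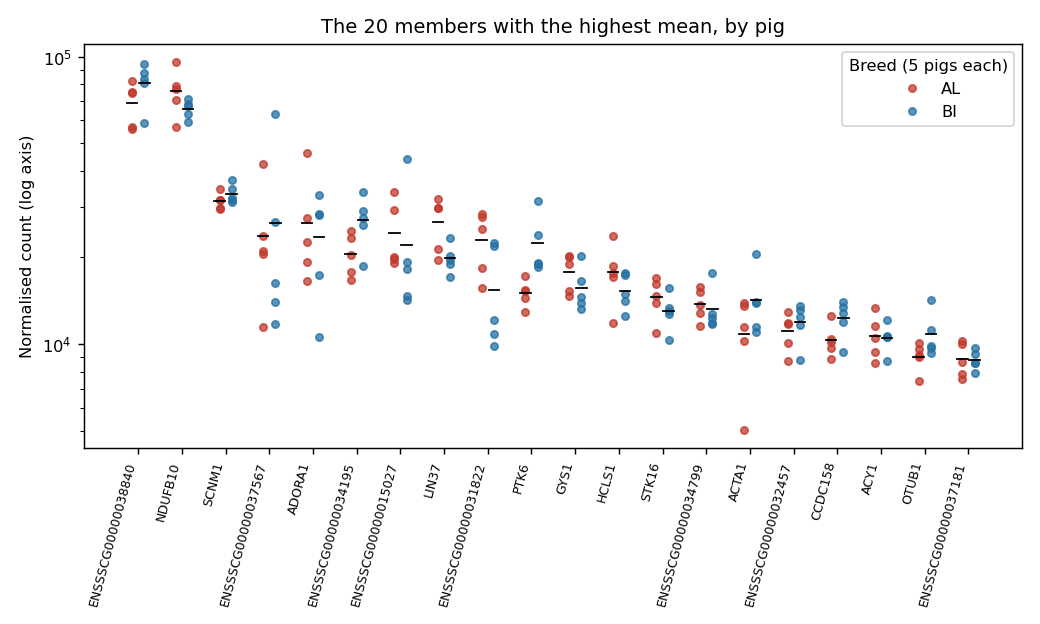
Normalised counts (vertical log axis) of the 20 members with the highest mean, with 1 point per pig, AL in red and BI in blue, and a black bar at the mean of each breed. SCNM1 is tight in both breeds, ENSSSCG00000037567 spreads from 11456 to 63193, and PTK6 is the one gene of the 20 in which all BI points lie above all AL points.

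The spread between pigs was small for most members. The SD of log2(value + 1) over the 10 pigs had a median of 0.25 over the members and of 0.32 over the 1513 genes tested, and within the breeds the medians were 0.25 and 0.31. The genes tested reach down to a mean of 50, where counting error is larger than at the lowest member mean of 2510. Its part in the difference was not tested. The highest pig was less than 2 times the lowest for 59 of 89 members and more than 3 times the lowest for 10. The steadiest members by this SD were C1orf35 (0.08), SCNM1 (0.10), MKRN2, a ubiquitin ligase (0.14), CHPF2, an enzyme of chondroitin sulphate synthesis (0.14), and TLCD1, a membrane protein (0.14). C1orf35 ran from 2476 to 2886 normalised counts over the 10 pigs, a 1.17-fold range.

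The least steady members by the same SD were ENSSSCG00000032395 (0.97), ENSSSCG00000037567 (0.79), ENSSSCG00000029441 (0.71), ADORA1 (0.60) and RMDN1 (0.57). ENSSSCG00000032395 had 5112, 5474, 4882, 826 and 5183 normalised counts in AL and 3485, 7307, 8373, 8038 and 6926 in BI, so AL52 stood far below the other 9 pigs and the range was 10.1-fold. ADORA1 had 19243, 46120, 27386, 16524 and 22629 in AL and 28119, 10606, 32920, 17320 and 28410 in BI, highest in AL46 and lowest in BI34. ENSSSCG00000037567 had 11456, 42338, 20569, 21133 and 23674 in AL and 11761, 16314, 63193, 13943 and 26470 in BI. In this gene BI36 and AL46 stood above the rest. ENSSSCG00000015027 was also highest in these pigs, with 44082 normalised counts in BI36 and 33864 in AL46 against 14207 to 29195 in the others. RMDN1 had 3356, 1319, 3589, 3217 and 1165 in AL and 2974, 1787, 2277, 2605 and 2902 in BI, so AL46 and AL63 were low.

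Certain pigs recurred at the ends of the range, and which pigs did so changed with the scaling. With the size factors of the deposited values, AL44 was the lowest pig for 32 of 89 members, against 15.8% of the genes tested, and BI34 was the highest for 28 of 89, against 15.0% of the genes tested. On the log2 scale the members lay at a median of -0.18 from their own median over pigs in AL44 and of 0.17 in BI34, and the genes tested at 0.03 in both. The direction turned when each value was taken as a share of all counts of its pig, a scaling tried after seeing the data. On that scale the members lay at a median of 0.06 in AL44 and of -0.05 in BI34, and the genes tested at 0.33 in AL44 and -0.18 in BI34. AL44 was then the lowest pig for 7 of 89 members and BI34 the highest for 8, and BI34 had the smallest share for the members together, 25.9%. AL44 also had the fewest reads on genes and the lowest sum of muscle markers, and BI34 the highest sum of muscle markers. That sum holds ACTA1, CKM and TNNI2, which are themselves members, so it is not separate from the members' values. The part of read number and muscle content in the members' values was not tested.

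The members on the muscle lists differed more between these pigs. By normalised count, AL44 was lowest in 6 of the 8 and lay at a median of -0.92 on the log2 scale from their medians over pigs, and BI34 was highest in 7 of the 8 and lay at a median of 0.64. As shares of all counts, AL44 was lowest in 5 of the 8 at a median of -0.65, and BI34 was highest in 2 of the 8 at a median of 0.36, so the direction held in both pigs while BI34 was mostly no longer the highest. ACTA1 had 5039, 13832, 10230, 11448 and 13525 normalised counts in AL and 13975, 20532, 10997, 11490 and 13897 in BI. CKM had 1994, 5000, 3124, 3964 and 5774 in AL and 4429, 6521, 3180, 4048 and 3806 in BI. ALDOA had 2385, 6588, 3835, 4656 and 6342 in AL and 4793, 7453, 4086, 4405 and 4631 in BI. In all of these, the breeds overlapped and AL44 was the lowest pig. GAPDH ran from 1983 in AL44 to 6040 in BI34, TNNI2 from 1591 to 3967 and EEF1A2 from 1392 to 3984 normalised counts in the same pigs. HHATL was different, lowest in AL52 with 2295 and highest in AL49 with 6073, and GYS1 ran from 13193 in BI42 to 20310 in BI34.

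**Figure D2:**
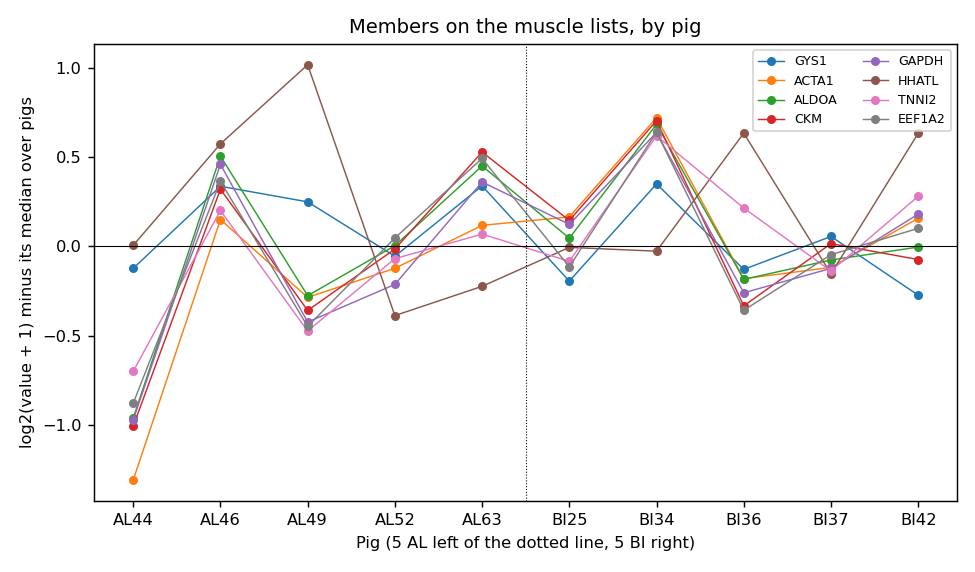
For the 8 members on the muscle lists, log2(value + 1) in each pig minus its median over the 10 pigs, with 1 line per gene, AL left and BI right of the dotted line. ACTA1, ALDOA, CKM, GAPDH, TNNI2 and EEF1A2 drop in AL44 and peak in BI34 on this scale, while HHATL peaks in AL49 and GYS1 moves least.

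AL and BI were compared to ask which high-count genes differ between a fat and a leaner breed. With limma on log2(value + 1), 0 of the 1513 genes tested had an adjusted p under 0.05 and so 0 of the 89 members did, while 112 genes had an unadjusted p under 0.05. Of the members 8 (8.99%) had an unadjusted p under 0.05, against a background of 7.40% of all genes tested, 3 higher in AL (background 3.50%) and 5 higher in BI (background 3.90%). The share of members is near that of all genes. Of the other tools, edgeR called 0 genes, with 116 at an unadjusted p under 0.05, and DESeq2 called 19 of 1513 (1.26%) at an adjusted p under 0.05, and neither called a member. The median log2 fold change, AL minus BI, was -0.02 over the members and -0.05 over the genes tested, with 42 members higher in AL and 47 in BI. In 70 of 89 members the fold change was under 0.25 on the log2 scale in either direction, and in 6 it was over 0.5.

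PTK6 was the 1 member of 89 (1.12%) whose breeds did not overlap, against 1.45% of the genes tested. It had 12883, 14501, 17292, 15416 and 15278 normalised counts in AL and 18577, 31320, 19005, 19070 and 23938 in BI, so all 5 BI pigs lay above all 5 AL pigs. Its log2 fold change was -0.55 (standard error, SE, 0.16), the adjusted p by limma was 0.312, and the exact two-sided permutation p was 0.00794, the smallest that 252 divisions of the pigs allow. The nearest gene of the opposite strand overlaps the 3′ end of PTK6 by 160 bases and is PPDPF, which could not be matched to a listed identifier.

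Of the other members with an unadjusted p under 0.05, ENSSSCG00000029441 had the largest difference. It had 1048, 2397, 2799, 2895 and 3149 normalised counts in AL and 3484, 6502, 2872, 4611 and 4934 in BI, lowest in AL44 and highest in BI34. Its log2 fold change was -0.91 (SE 0.29) and its adjusted p by limma 0.361. TTC23 had 4360, 4019, 5902, 6725 and 4028 in AL and 6699, 6729, 6012, 6705 and 9431 in BI, and its log2 fold change was -0.52 (SE 0.18). AP3M1, a subunit of a vesicle coat adaptor, differed by -0.42 and ANKRD13B by -0.26 on the log2 scale, both with the higher mean in BI. The last of these had 5 AL values from 3030 to 4073 and 5 BI values from 3653 to 4549.

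LIN37, ENSSSCG00000031822 and KLHL17 had the higher mean in AL. LIN37 had 29634, 21446, 31883, 19631 and 29779 normalised counts in AL and 23379, 20184, 17148, 18989 and 19570 in BI, and its log2 fold change was 0.40 (SE 0.16). ENSSSCG00000031822 had 25041, 15611, 27564, 18395 and 28353 in AL and 22484, 10795, 9828, 12072 and 21892 in BI, and its log2 fold change was 0.63 (SE 0.26). In both, AL44, AL49 and AL63 were above every BI pig. KLHL17, an actin-binding protein known from neurons, had 7317, 4517, 5744, 10136 and 11876 in AL and 5632, 6708, 4566, 4338 and 4385 in BI, and its log2 fold change was 0.56 (SE 0.24). The adjusted p by limma of these 8 members ran from 0.312 for PTK6 to 0.651 for ANKRD13B.

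**Figure D3:**
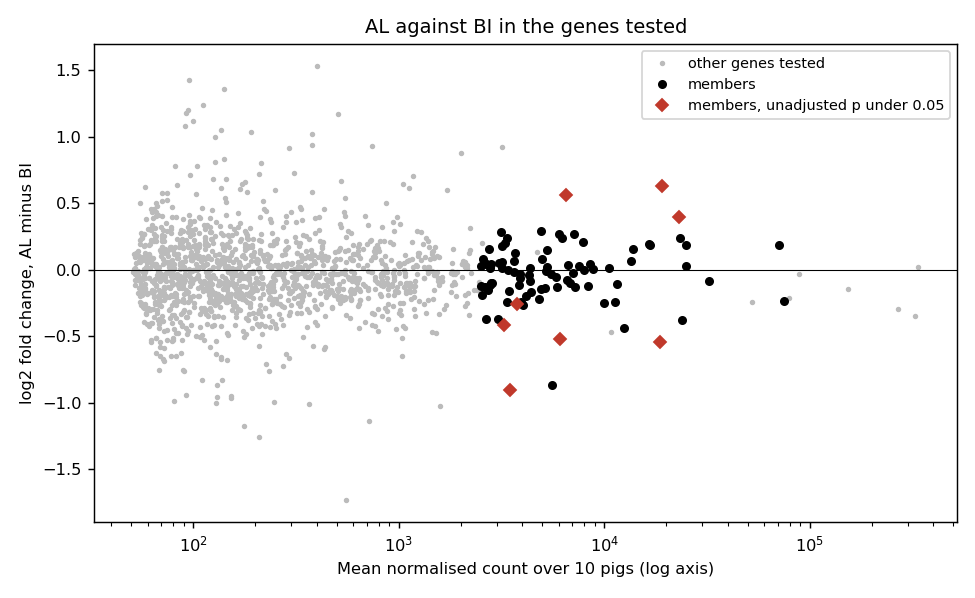
The log2 fold change, AL minus BI (vertical axis), against the mean normalised count over 10 pigs (horizontal log axis) for the 1513 genes tested, in grey, with the 89 members in black and the 8 members with an unadjusted p under 0.05 as red diamonds. The members lie between -0.91 and 0.63, and 0 of them had an adjusted p under 0.05.

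The 8 members on the muscle lists did not pass the test, the smallest unadjusted p being 0.0782 for TNNI2, with an adjusted p by limma of 0.684. The mean on the log2 scale was higher in BI for 7 of the 8, by a log2 fold change of -0.44 (SE 0.26) for ACTA1 and of -0.37 (SE 0.19) for TNNI2. Without AL44 it was higher in BI for 3 of the 8, ACTA1 at -0.18, TNNI2 at -0.25 and GAPDH at -0.07, and CKM moved from -0.20 to 0.03. GYS1 was the exception at 0.19 on the log2 scale, and 0.26 without AL44.

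For the genes that lie opposite, 65 of the 89 members could be placed on the genome through a symbol that is unique in RefSeq, 32 on the plus and 33 on the minus strand. The other 24 were not placed. A protein-coding gene of the opposite strand lay on the 3′ side of 56 of the 65 (86.2%), overlapping or within 5 kb, so that the 3′ ends face each other. This was so for 74.5% of the other 1103 genes tested that could be placed, for 27.3% of all 13545 genes placed and for 9.95% of 2924 genes listed at 0. The share was 87.7% for ranks 101 to 300, 79.3% for ranks 601 to 1000, 52.1% for ranks 1001 to 2000 and 19.0% for ranks 8001 to 14681. Members thus share this arrangement with the high-count genes that follow them.

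On the 5′ side, an opposite protein-coding gene was found for 47.7% of the members, near the 47.1% of ranks 101 to 300. It was found for 35.2% of the other genes tested and 20.2% of all genes placed. A gene of the same strand on the 3′ side was found for 9.23% of the members and 13.98% of all genes placed. Bodies overlapped on the 3′ side for 26 of 65 members (40%), against 40% of ranks 101 to 300 and 37.3% of the other genes tested. For 23 pairs of a member and a gene on its 3′ side the exons overlapped, by a median of 237 bases. Where the bodies did not overlap, the median gap was 510 bases. The libraries were stranded, but the strand setting used in counting is not given in the sources used here. Which strand the reads counted for a member came from was not tested. By RefSeq 23 of 57 such pairs share exon bases, but the Ensembl models used in counting can differ, so this number does not bear on the strand of the reads.

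**Figure D4:**
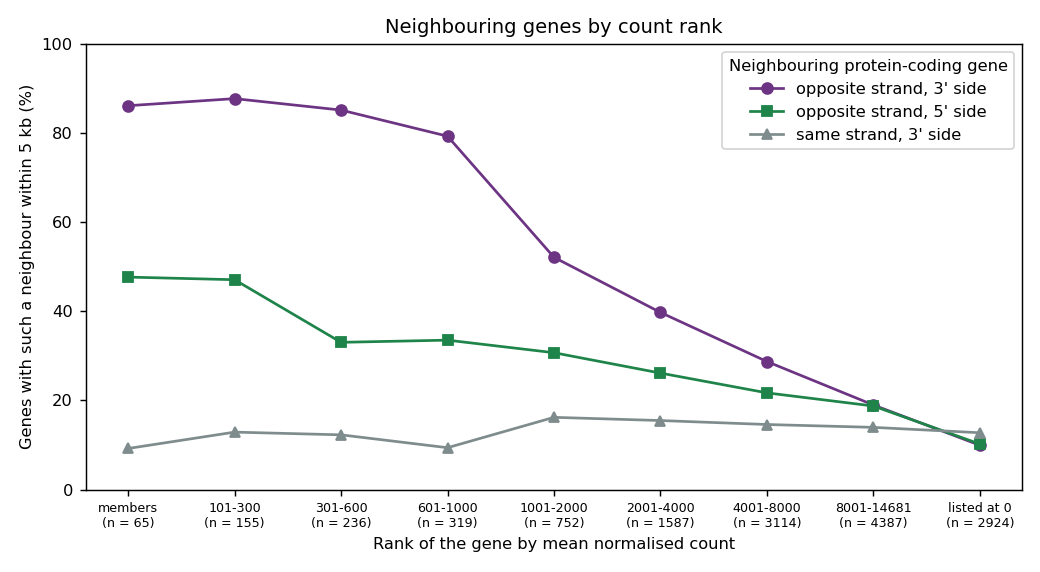
Percent of genes (vertical axis) with a protein-coding gene overlapping or within 5 kb on the opposite strand at the 3′ side (purple), on the opposite strand at the 5′ side (green) or on the same strand at the 3′ side (grey), for the 65 placed members, for ranks below them by mean normalised count and for genes listed at 0. The purple line falls from 86.2% in the members to 9.95% in genes listed at 0, the grey line starts at 9.23% and stays low.

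A gene on the muscle lists lay opposite 10 of the 65 placed members (15.4%), and on the same strand near 0 members. The share with one opposite was 3.23% for ranks 101 to 300, 1.45% for the other genes tested and 0.421% for all genes placed. The gene lists here and below were chosen with earlier results of these data known, so these shares can depend on that choice. In 9 of the 10 members the muscle gene lay on the 3′ side. Each listed gene below that could be matched to an identifier had a lower mean count than the member facing it, which the choice of members by their counts brings with it.

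Among the sarcomere genes, TMOD4 faced SCNM1 across 497 bases on chromosome 4, where SCNM1 lies at 98079844 to 98082374 on the minus strand and TMOD4 at 98074380 to 98079346 on the plus strand. TMOD4 had 493, 736, 503, 574 and 847 normalised counts in AL and 391, 467, 483, 501 and 487 in BI. On the per kb scale this was a mean of 390 for TMOD4 against 35714 for SCNM1, a 91.5-fold difference. MYBPH, a myosin-binding protein, lies at 113872439 to 113884544 of chromosome 9 on the minus strand and shared 2007 exon bases with ADORA1. MYBPH had 86.9, 295, 114, 64.0 and 92.8 normalised counts in AL and 119, 58.4, 141, 70.2 and 107 in BI, highest in AL46 and lowest in BI34 as ADORA1 was. The log2 ratio of ADORA1 to MYBPH had an SD of 0.24 over pigs, while ADORA1 alone had 0.60 and MYBPH alone 0.67.

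Other sarcomere genes faced members too. NRAP, a protein of the sites where myofibrils attach to the membrane, shared 371 exon bases with HABP2, a plasma protease, and had 16.7 normalised counts per kb against 1962. KLHL40, a protein that stabilises thin filaments, shared 758 exon bases with HHATL, itself on a muscle list, and had 9.97 per kb against 1010. TMOD1, a tropomodulin, overlapped TSTD2 by 1797 bases and could not be matched to an identifier, so no value is given.

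LIN37 and HSPB6 lie 55 bases apart on chromosome 6, LIN37 at 45175454 to 45181383 on the plus strand and HSPB6 at 45181439 to 45184011 on the minus strand. HSPB6 had 399, 277, 218, 300.6 and 305 normalised counts in AL and 302, 250, 359, 296 and 377 in BI, and its mean of 210 per kb compared with 21998 per kb for LIN37. Unlike LIN37 it was not higher in AL44, AL49 and AL63 together, and AL49 was its lowest pig. The log2 ratio of LIN37 to HSPB6 had an SD of 0.46, above the 0.32 of LIN37 and the 0.27 of HSPB6.

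Of the other muscle genes, GYG1, the primer of glycogen synthesis, faced HLTF, a DNA helicase-like factor, across 1629 bases and had 5.04 normalised counts per kb against 679. ATP1B1, the beta subunit of the sodium pump, faced NME7 across 266 bases and had 11.14 per kb against 1422. APOBEC2, a muscle protein of the cytidine deaminase family, overlapped OARD1 by 2498 bases and could not be matched to an identifier. RPL3L, the muscle form of a ribosomal protein, lay on the 5′ side of NDUFB10, sharing 744 bases of gene body but 0 exon bases, and had 33.3 per kb against 85467.

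Genes on the mitochondrial energy list lay opposite 3 of the 65 members (4.62%), near the 4.52% of ranks 101 to 300, against 1.54% of the other genes tested. All are forms or subunits of isocitrate dehydrogenase, an enzyme that oxidises isocitrate in mitochondria. IDH2 faced ZNF710 across 164 bases with 67.3 normalised counts per kb against 402. IDH3A shared 1362 exon bases with ACSBG1 and had 4.29 per kb against 644. IDH3B shared 12 exon bases with NOP56, a protein of ribosome assembly, and had 518 per kb against 1082, the closest levels of these pairs.

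Of the other genes tested 0.725% had a gene of translation opposite, and of ranks 101 to 300 it was 3.23%. Such genes lay opposite 10 of the 65 members (15.4%), and on the same strand near 0. They were mostly ribosomal protein genes. RPS2 overlapped NDUFB10 by 2 bases and had 283, 912, 460, 517 and 611 normalised counts in AL and 437, 525, 365, 486 and 549 in BI, lowest in AL44 and highest in AL46 as NDUFB10 was. On the per kb scale RPS2 had 87.1 against 85467 for NDUFB10. RPL29 shared 144 exon bases with ACY1 and had 127 per kb against 4605. It too was lowest in AL44 and highest in AL46, as ACY1 was.

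The remaining pairs of this group were further apart or faced 5′ ends. RPL23A faced TLCD1 across 227 bases with 54.6 normalised counts per kb against 5770, RPS27A faced MTIF2, a mitochondrial initiation factor, across 153 bases with 23.0 against 2038, and RPS21 faced CABLES2 across 109 bases with 38.9 against 1066. RPL10 faced DNASE1L1 across 1618 bases with 310 normalised counts per kb against 5451. RPL36 opposite LONP1, the mitochondrial protease, and RPL31 opposite TBC1D8 could not be matched to an identifier. FAU lay on the 5′ side of MRPL49, a protein of the mitochondrial ribosome, with 502 per kb against 1816, and EEF1B2 on the 5′ side of NDUFS1 with 16.2 against 1144.

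**Figure D5:**
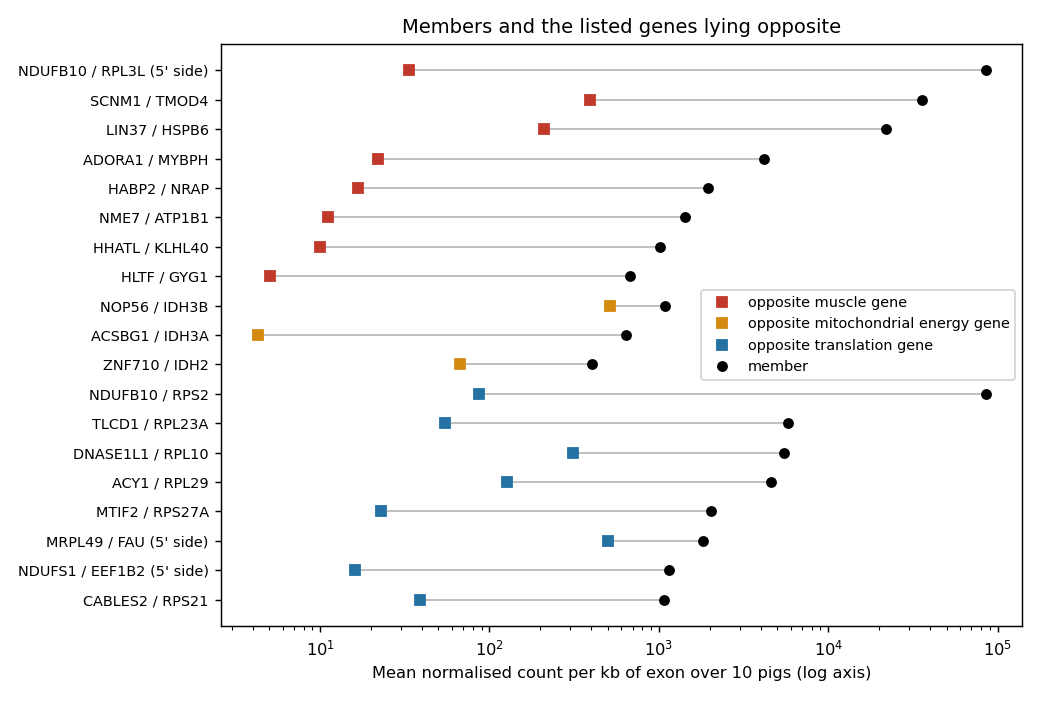
Mean normalised count per kb of exon over the 10 pigs (horizontal log axis) for members (black circles) and for the listed muscle (red), mitochondrial energy (orange) and translation (blue) genes of the opposite strand (squares), with 1 row per pair that has both values. The member is the higher of the pair in every row drawn, from NOP56 with 1082 against 518 for IDH3B to NDUFB10 with 85467 against 33.3 for RPL3L. Members were chosen by their counts, which brings this direction with it.

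In 48 pairs a gene on the 3′ side of a member, listed or not, could be matched to an identifier. The member had the higher mean in 48 of the 48, also per kb, which the choice of members by their counts brings with it. The median difference, which rests on the same choice, was 94.7-fold per kb. The lowest was 1.49-fold for NR1D1, a circadian repressor, against THRA, the thyroid hormone receptor that was dropped by name, and the highest was 1853-fold for PSMB3, a proteasome subunit, against PIP4K2B. In 26 of these pairs the gene opposite was among the genes tested. Its ratio to the member was steadier than either gene, by the SD of the log2 ratio, in 6 pairs and less steady than either in 10. FLOT1 and TUBB, a tubulin, were among the 6 with an SD of 0.13 for the ratio against 0.32 and 0.31 for the genes, and NR1D1 and THRA among the 10 with 0.73 against 0.25 and 0.64. The pairs of NR1D1, PSMB3 and FLOT1 were picked after their values were seen.

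Seen from the muscle genes, 31 of 132 placed genes of the muscle lists had an opposite gene with an identifier on their 3′ side within 5 kb. The opposite gene had the higher mean in 17 of the 31, and per kb in 13. A member was that gene for 7, the pairs named above, and genes dropped by name were it for ACTN3 (CTSF), ATP2A1 (RABEP2) and TPI1 (SPSB2). The reverse held for members that are muscle genes themselves, which were likewise chosen by their counts. CKM had 1829 normalised counts per kb against 6.11 for MARK4, GAPDH 849 against 10.98 for IFFO1, and GYS1 4728 against 21.8 for FTL. Opposite ACTA1, TNNI2 and EEF1A2 the annotation held no gene within 5 kb.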

How the data were processed

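Stranded mRNA libraries of longissimus lumborum from 5 AL and 5 BI pigs, 1 per pig, were analysed, and the animal names in the labels gave the breed. Per the submitters' processing notes, reads were trimmed with Trim Galore 0.5.0, aligned to Sscrofa11.1 with HISAT2 2.1.0 and counted per Ensembl gene with HTSeq 0.11.1. The deposited signal values are such counts after division by a size factor per pig, computed with DESeq2. The authors also deposited log2 fold changes, scores (standard errors and Wald statistics) and p-values of their breed comparison, which hold their own findings and were not used.

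The smallest value above 0 in a pig was taken as 1 read, and 100% of the values were whole multiples of it within 0.01. On the values, limma 3.58.1 (R 4.3.3) was run with intensity trend on log2(value + 1), for genes whose mean was 50 or more in both breeds, with Benjamini-Hochberg adjustment over the 1513 genes tested and a threshold of 0.05. The count test planned for raw counts became an alternative on the whole reads (edgeR 4.0.16, DESeq2 1.42.0, limma-voom), in which edgeR called 0 genes, DESeq2 called 19 and limma-voom called 0. Other alternatives were the pseudocount, the minimum, the library size and leaving out each pig. The steps were tested on simulated data. Single genes were also compared by an exact two-sided permutation test of 5 against 5 pigs (scipy 1.17.1). The pigs are taken as independent animals, and with 5 per breed the smallest exact p is 0.00794.

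Positions, exon lengths and sequence were looked up by unique symbol in RefSeq annotation release 106 (build Sscrofa11.1). RefSeq models can differ from the Ensembl models used in counting. A depth of 2298045 to 3343194 reads counted on genes per pig leaves 3 reads, the floor for a gene at 0, at 2.83 normalised counts in AL44.

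Members and gene lists were chosen with earlier results of these data known. The text names the 20 highest members, members with an unadjusted p under 0.05 or with breeds that do not overlap, the 5 most and 5 least variable, members on a muscle, mitochondrial energy or translation list or with such a gene opposite within 5 kb, and the 3 genes on either side of rank 100. Genes named outside this rule were chosen after their values were seen.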

Additional observations from a re-analysis of the deposited data

Results flagged for a closer look

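In 11 of 178 groups (89 members in each breed, 6.18%) the highest or lowest of the 5 pigs stood apart by Dixon's criterion for 5 values (0.71), against 6.61% of the groups of all genes tested. Chance gives about 1 in 20 groups. BI34 was the pig that stood above the rest of its breed in 5 of the 11 by normalised count, a scale on which it was the highest pig for 28 of 89 members, against 8 of 89 as shares of all counts. These were ENSSSCG00000034799 with 17707 normalised counts against 11750 to 12749 in the other BI pigs, ALDOA with 7453 against 4086 to 4793, GPS1 with 3451 against 2509 to 2662, NOP56 with 3223 against 2755 to 2857 and DDX49 with 3782 against 2239 to 2647. BI36 stood above its breed in ENSSSCG00000037567 with 63193 against 11761 to 26470 and in ENSSSCG00000015027 with 44082 against 14207 to 19322. BI42 was high in TTC23 with 9431 against 6012 to 6729, and BI25 was high in NME7 with 5403 against 2955 to 3491. Among the AL pigs, AL46 was high in ENSSSCG00000037674 with 13883 against 6673 to 8105. AL52 was low in ENSSSCG00000032395, at 826 normalised counts against 4882 to 5474.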

How the results depend on the processing

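The number of genes called between the breeds was 0 in the main comparison and also with the other pseudocounts, with library sizes without the 10 highest genes, with edgeR and with limma-voom. It was 1 with a mean of 50 asked in at least one breed and 19 with DESeq2. With no minimum it was 40 of the 14681 genes with a read, of which 936 had an unadjusted p under 0.05 by limma. Leaving out each pig gave 0 to 1, with 1 without AL44 and 1 without BI37. Of the members, 8 had an unadjusted p under 0.05, and 3 to 9 with each pig left out, 3 without AL63 and 4 without BI42. ENSSSCG00000029441 reached an adjusted p by limma of 0.0468 with no minimum, and over the 18 alternatives its adjusted p ran from 0.0468 to 0.658. PTK6 ran from 0.0623 to 0.549, and the 8 members named for the breed difference kept their direction throughout. The share of counts rose from a median of 29.0% to 50.1% without the 10 highest genes, by construction, and was 28.6% to 29.4% with each pig left out. The median spread was 0.25 to 0.26 with each pig left out. A muscle gene lay opposite 10 members with each pig left out, and opposite 6 where the genes had to overlap. By alternatives chosen after seeing the data, the 56 members with an opposite gene on the 3′ side became 26 where the genes had to overlap. With shares of all counts in place of size factors, also chosen after seeing the data, the median deviation of the members turned from -0.176 to 0.0593 in AL44 and from 0.168 to -0.0544 in BI34. No paired analysis was possible because the animal numbers in the labels are not shared between the breeds. Depth was not a limit for the members, whose lowest value in any pig was 826 normalised counts, but it was for opposite genes with means near the floor of 3 reads.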
